A study of Mus musculus with 4 samples.

Results

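The striated-muscle microRNAs are the small regulatory RNAs that accumulate in skeletal and heart muscle, and their levels were read here in whole mouse embryos with and without estrogen receptor alpha (ER-alpha). They were chosen by name: every assay of the panel for miR-1, miR-133a, miR-133b, miR-206, miR-208, miR-208a, miR-208b or miR-499. Of 375 microRNA assays, 7 met this rule, namely mmu-miR-1, rno-miR-1, mmu-miR-133a, mmu-miR-133b, mmu-miR-208, mmu-miR-208b and mmu-miR-499. The prefix gives the species of the sequence the assay was designed for, mouse (mmu) or rat (rno), so that miR-1 has 2 assays. None of the 375 assays was named for miR-206.

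Total RNA came from whole C57BL/6 embryos at E18.5 of 2 genotypes, wild-type and ER-alpha KO, with 2 samples of each. All samples shared the strain, the stage and the tissue, and no treatment is named. How the receptor gene was disrupted, how many embryos entered a sample and from which litters they came is not in the labels. The spread behind each p-value is that between these samples and may be technical in part. TaqMan real-time PCR gave a threshold cycle (Ct) per well. The more RNA a well holds the lower its Ct, and 1 cycle was taken as 1 log2 unit. In RNA of a whole embryo, fewer muscle cells and less microRNA per muscle cell cannot be told apart.

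MicroRNAs guide the silencing machinery to messenger RNAs that pair with their seed, the stretch near the 5′ end. In muscle, miR-1 and miR-133a are made from shared precursor transcripts under the control of muscle transcription factors such as SRF, MEF2 and MyoD. miR-1 is known to favour differentiation, and miR-133 to restrain SRF and to keep myoblasts dividing. miR-133b is made beside miR-206 and is typical of skeletal muscle. miR-208a, miR-208b and miR-499 lie in introns of myosin heavy chain genes and help to set which myosin a heart or muscle fibre uses.

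Mature sequences were found for 4 of the 7 assays in RefSeq (build GRCm38.p6), and they are shown because they place the members in seed groups. The panel's names of these 4 assays carry no arm, and the arm shown is the one that each name usually stands for. Capitals mark the seed, bases 2 to 8 from the 5′ end.
mmu-miR-133b-3p: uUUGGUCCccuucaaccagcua
mmu-miR-499-5p: uUAAGACUugcagugauguuu
mmu-miR-208a-3p: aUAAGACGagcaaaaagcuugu
mmu-miR-208b-3p: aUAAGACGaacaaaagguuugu

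The sequences held 3 distinct seeds. miR-208a-3p and miR-208b-3p shared their seed and were identical at 19 of 22 bases, differing by G10A, A16G and C18U (miR-208a base first, position from the 5′ end, then miR-208b base). miR-499-5p had the same bases 2 to 7, and its seed differed from that of both miR-208 forms only by U8G (miR-499 base first). miR-133b-3p shared its seed with none of the other 3.

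The genes of these members lie in or beside genes of muscle. The hairpin of Mir208a (chr14:54949060-54949142, minus strand) lies inside Myh6, which encodes the alpha heavy chain of cardiac myosin. That of Mir208b (chr14:54975700-54975776, minus strand) lies inside Myh7, which encodes the beta heavy chain, and the 2 hairpins are 26557 bases apart. The hairpin of Mir499 (chr2:155622880-155622958, plus strand) lies inside Myh7b, another myosin heavy chain gene. That of Mir133b (chr1:20682769-20682887, plus strand) lies inside the non-coding gene Lincmd1, 3686 bases from Mir206.

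Wild-type replicate 1 stood apart in the way its values were written. All 380 of its wells other than U6 held a shared constant of 0.273 cycles. With that taken off, the wells of all 7 members lay within 0.038 cycles of a whole cycle, at 21 for mmu-miR-133a, 23 for mmu-miR-133b, 26 for rno-miR-1, 27 for mmu-miR-1, 32 for mmu-miR-499 and 35 for both miR-208 assays. Over its amplified assays 90.0% stood at most 0.1 cycle from a whole number of cycles, against 21.0% to 26.5% in the other samples. In wild-type replicate 1, 336 microRNA assays amplified and 290 were detected at a Ct of 35 or lower. In the other samples 283 to 286 amplified and 254 to 260 were detected. Genotype differences of the members are given with and without wild-type replicate 1.

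The members spanned nearly the whole range of the panel. A well was counted as detected at a Ct of 35 or lower, which 5 of the 7 members reached in all 4 samples, where 61.1% of all 375 microRNAs did. Detection was met in 21 of the 28 member wells, by 5 members in each sample except ER-alpha KO replicate 1, where 6 did.

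The miR-133 assays came up earliest among the members. mmu-miR-133a, the abundant form in heart and skeletal muscle, had a Ct of 21.3 and 20.3 in wild-type replicates 1 and 2, and of 19.96 and 20.01 in ER-alpha KO replicates 1 and 2. It was the earliest of all microRNA assays in both knockout samples and took rank 2 in both wild-type samples. mmu-miR-133b, the form made beside miR-206, had a Ct of 23.3 and 23.0 in wild-type and 23.0 and 23.3 in knockout samples, ranks 8, 17, 14 and 18. The wild-type and knockout Ct values of mmu-miR-133b covered the same span, while both knockout values of mmu-miR-133a were earlier than both wild-type values before any scaling. Unscaled, the knockout minus wild-type difference was 0.78 log2 units for mmu-miR-133a, where the median of all microRNAs detected in all samples was 0.55. The share of all microRNAs whose unscaled Ct values were apart in this way was not counted.

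Both miR-1 assays came up later than the miR-133 assays. rno-miR-1 had a Ct of 26.2 and 24.1 in wild-type and of 24.3 and 24.3 in knockout samples. mmu-miR-1 had a Ct of 27.3 and 24.9 in wild-type and of 25.4 and 25.4 in knockout samples. In each assay the knockout samples lay between the 2 wild-type samples, with wild-type replicate 1 the latest and wild-type replicate 2 the earliest.

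The microRNAs of the myosin genes were late or undetermined. mmu-miR-499 amplified at 32.2 and 31.7 in wild-type and at 31.6 and 31.7 in knockout samples, ranks 220, 209, 200 and 202 of its sample's microRNAs. mmu-miR-208b, the microRNA of the Myh7 intron, was detected only in ER-alpha KO replicate 1, at 33.8. It was read at 37.6 in the other knockout sample and at 35.3 in wild-type replicate 1, and was undetermined in wild-type replicate 2. mmu-miR-208, the microRNA of the Myh6 intron, was read at 35.2 in wild-type replicate 1 and was undetermined in the other 3 samples. No genotype difference is given for either, since no level can be given where a well is undetermined.

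**Figure D1:**
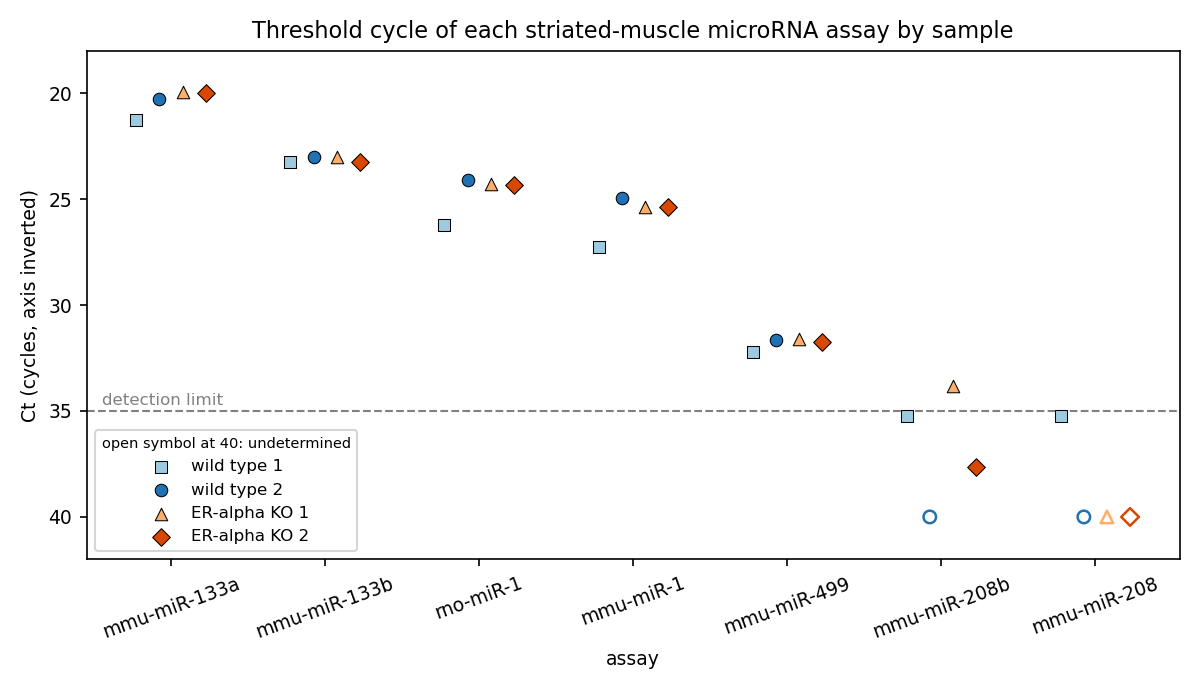
Threshold cycle in cycles (vertical axis, inverted so that more RNA is higher) of each of the 7 striated-muscle assays, with 1 point per sample; open symbols at 40 are undetermined wells and the dashed line is the detection limit of 35. mmu-miR-133a lies near 20 to 21.3, mmu-miR-499 near 32, and mmu-miR-208b and mmu-miR-208 at or past the limit in all but 1 well.

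The order of the 5 detected members was the same in each of the 4 samples: mmu-miR-133a, mmu-miR-133b, rno-miR-1, mmu-miR-1, mmu-miR-499. Different assays can differ in efficiency, so this order is one of Ct values and not of molecule numbers. The gap from mmu-miR-133a to mmu-miR-133b was 2.76 ± 0.56 cycles, and from mmu-miR-133b to rno-miR-1 it was 1.61 ± 0.92 cycles (SD, n = 4). From rno-miR-1 to mmu-miR-1 it was 0.998 ± 0.12 cycles and from mmu-miR-1 to mmu-miR-499 it was 6.06 ± 0.76 cycles (SD, n = 4). Each gap between neighbours was larger than its SD over samples, the smallest margin being that between mmu-miR-133b and rno-miR-1, which was 2.98 in wild-type replicate 1 and 1.06 to 1.28 in the others.

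The first comparison asked whether these microRNAs differ between ER-alpha KO and wild-type embryos. Levels are minus the Ct relative to the median of the 229 microRNAs detected in all samples, in log2 units, so that 0 is the median microRNA of a sample. Tests were run with limma over all 229, and 0 of the 5 detected members passed an adjusted p of 0.05, as did 0 of the 229 (0%). Without adjustment, 0 of the 5 had a limma p under 0.05, against 10 of the 229 (4.37%).

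rno-miR-1 had the largest difference among the members. It had levels of 2.999 and 3.25 in wild-type samples, and of 3.89 and 3.49 in knockout samples. Both knockout samples lay above both wild-type samples, by 0.24 at the closest. The log2 fold change was 0.57 ± 0.64 (SE), or 1.48-fold, with a 95% interval of -0.69 to 1.82 (limma adjusted p = 0.939). Without wild-type replicate 1 it was 0.11.

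mmu-miR-1 had levels of 1.96 and 2.43 in wild-type and 2.80 and 2.44 in knockout samples. The knockout samples again lay above, but at the closest by only 0.0048 log2 units. Its log2 fold change was 0.42, with a 95% interval of -0.83 to 1.67 (limma adjusted p = 0.939). Without wild-type replicate 1 it was -0.15, on the other side of 0, so the direction for miR-1 on this assay rested on that sample.

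mmu-miR-133a had levels of 7.97 and 7.10 in wild-type and 8.23 and 7.82 in knockout samples. The groups overlapped, since wild-type replicate 1 lay between the knockout samples. Its log2 fold change was 0.49, with a 95% interval of -0.76 to 1.74 (limma adjusted p = 0.939). Leaving out wild-type replicate 1 gave 0.60 and leaving out wild-type replicate 2 gave 0.17.

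mmu-miR-133b had levels of 5.98 and 4.36 in wild-type and 5.17 and 4.55 in knockout samples. Its 2 wild-type samples were the highest and the lowest of the 4, a gap of 1.61 log2 units and the widest among the detected members. The log2 fold change was -0.31, with a 95% interval of -1.56 to 0.94 (limma adjusted p = 0.939). Leaving out wild-type replicate 1 gave 0.17 and leaving out wild-type replicate 2 gave -1.001, so each wild-type sample alone gave a different direction.

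mmu-miR-499 had levels of -3.002 and -4.29 in wild-type and -3.42 and -3.90 in knockout samples. The knockout samples lay between the wild-type samples. Its log2 fold change was -0.018, with a 95% interval of -1.27 to 1.23 (limma adjusted p = 0.986). It was 0.29 without wild-type replicate 1, -0.54 without wild-type replicate 2 and 0.14 without ER-alpha KO replicate 2.

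**Figure D2:**
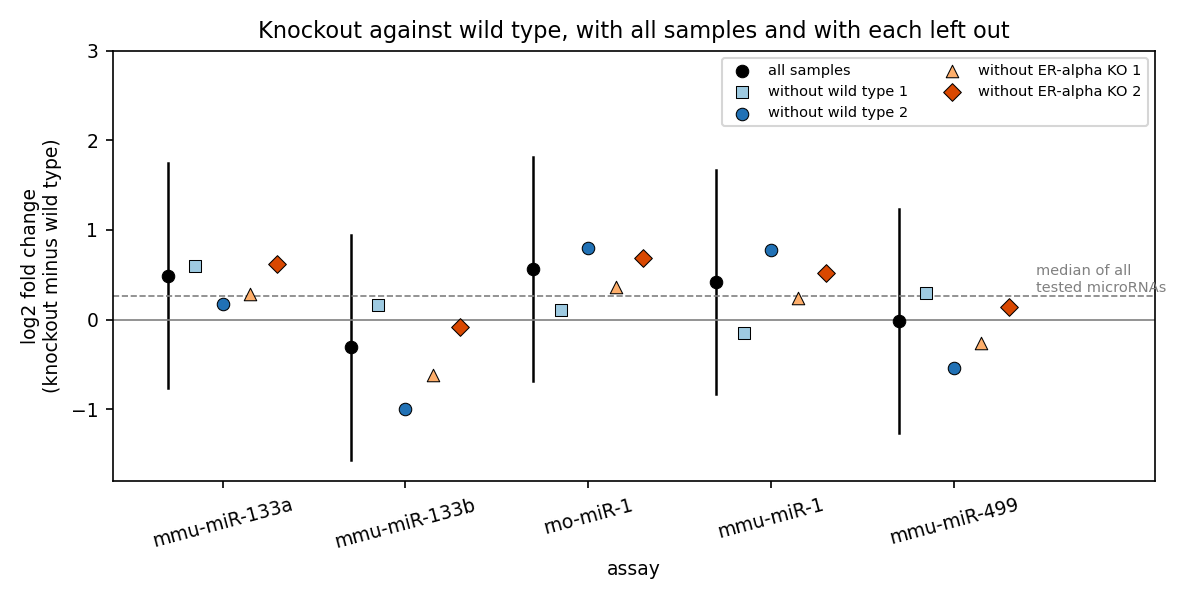
Log2 fold change of ER-alpha KO minus wild-type (vertical axis) of the 5 detected striated-muscle assays; black points with 95% intervals use all 4 samples, coloured points leave out 1 sample each, and the dashed line is the median of all 229 microRNAs. All 5 intervals span 0, and the points for mmu-miR-1, mmu-miR-133b and mmu-miR-499 lie on both sides of 0.

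As a set the 5 detected members had a median log2 fold change of 0.42, and the 229 microRNAs had one of 0.26. It was 3 of the 5 that had a value above 0, against 68.1% of the 229. Both knockout samples lay above both wild-type samples for 2 of the 5, both of them miR-1 assays, against 33.2% of the 229, and below for 0 of the 5, against 6.11%. In either direction the groups were apart for 2 of the 5 and for 39.3% of the 229. Both miR-1 assays read the same or closely related RNA, so they are not independent. Without wild-type replicate 1 the medians were 0.17 for the members and -0.03 for all microRNAs. The limma standard error of 0.64 was shared by all assays, and an assay needed at least a 2.38-fold difference to reach an unadjusted p of 0.05. The intervals of the 5 members reach from 0.34-fold to 3.53-fold.

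The second comparison set the members against each other inside each sample, where no scaling enters. mmu-miR-133b came up after mmu-miR-133a by 1.99 and 2.74 cycles in wild-type and by 3.06 and 3.27 cycles in knockout samples. The gap was wider in both knockout samples, by 0.80 cycles on average and by 0.43 cycles without wild-type replicate 1. By a two-sided exact permutation test this gave p = 0.333, the smallest that 2 against 2 samples allow.

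From mmu-miR-133a to mmu-miR-499 the gap was 10.97 and 11.4 cycles in wild-type and 11.7 and 11.7 cycles in knockout samples, a difference of 0.51 (0.30 without wild-type replicate 1). From mmu-miR-133b to mmu-miR-499 it was 8.98 and 8.65 cycles in wild-type and 8.59 and 8.45 cycles in knockout samples, a difference of -0.29 (-0.13 without that sample). The groups did not overlap in either of these gaps, nor in that between the miR-1 assays, and they overlapped in the other 6. Of the 10 gaps among the 5 members, 4 did not overlap, against 34.4% of all pairs of the 229 assays.

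The gap between the miR-1 assays had the smallest SD of the 10 pairs over the 4 samples, but not without wild-type replicate 1. The other 3 samples then spanned 0.81 to 1.09 cycles, against 8.45 to 8.65 for mmu-miR-133b to mmu-miR-499, 1.06 to 1.28 for mmu-miR-133b to rno-miR-1 and 7.31 to 7.53 for rno-miR-1 to mmu-miR-499. mmu-miR-1 came up after rno-miR-1 by 1.04 and 0.81 cycles in wild-type and by 1.09 and 1.05 cycles in knockout samples. Leaving out 1 sample at a time moved the mean gap only between 0.968 and 1.06 cycles. Wild-type replicate 1, whose Ct values were the latest of the 4 in both assays, lay inside the range of the others for this gap. Its wells stood near whole cycles, at 26 and 27 without the constant, so its gap could only fall near a whole number. Its place inside that range therefore does not show that the gap is stable.

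From mmu-miR-133a to the miR-1 assays, the microRNAs that share precursor transcripts, the wild-type samples lay on either side of the knockout samples. The gap to mmu-miR-1 was 6.01 and 4.67 cycles in wild-type and 5.43 and 5.38 cycles in knockout samples. That to rno-miR-1 was 4.97 and 3.85 cycles in wild-type and 4.34 and 4.33 cycles in knockout samples, where the SD was 0.0089 (n = 2). In 9 of the 10 gaps wild-type replicate 1 lay outside the range of the other 3 samples, against 75.4% of all pairs of assays. The part of its whole-cycle readings in these gaps was not tested.

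**Figure D3:**
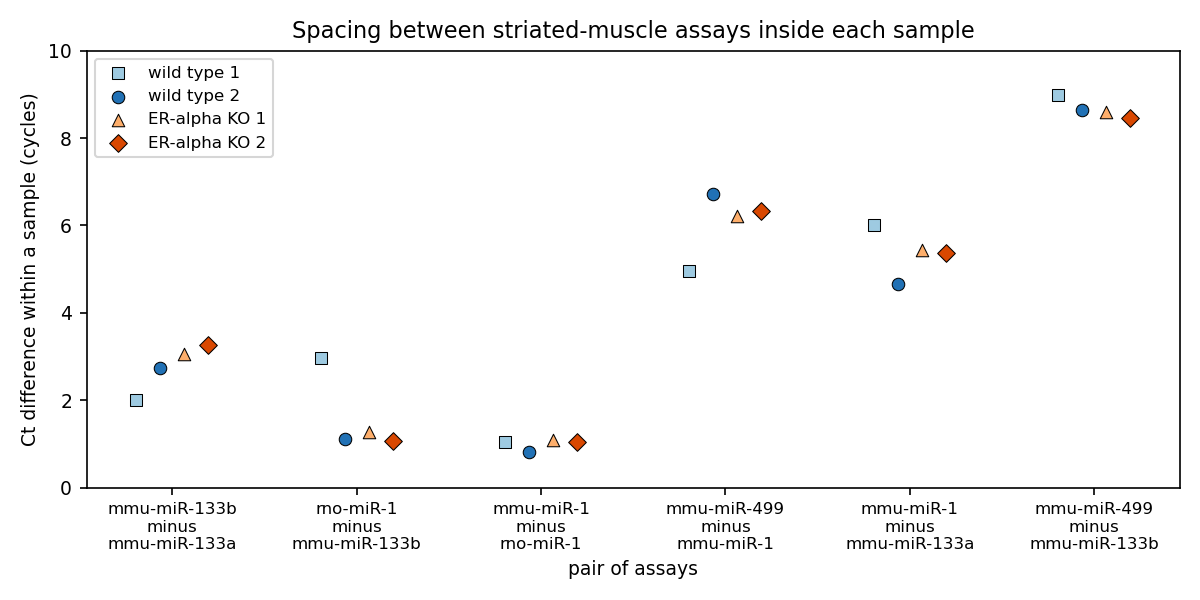
Difference in Ct between named pairs of striated-muscle assays inside each sample (vertical axis, cycles), with 1 point per sample. The gap between the miR-133 assays is 1.99 and 2.74 in wild-type and 3.06 and 3.27 in knockout samples, the gap between the miR-1 assays stays between 0.81 and 1.09, and wild-type replicate 1 lies apart in the gaps from mmu-miR-133b to rno-miR-1 and from mmu-miR-1 to mmu-miR-499.

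Outside the set, the 3 microRNAs with the most similar profile were found for each member by the root-mean-square (RMS) distance of mean-centred levels over the 4 samples. They are the smallest distances picked from all tested microRNAs outside the set, so small values follow from the choice itself. For rno-miR-1 these were mmu-miR-199a-3p (0.023 log2 units), mmu-miR-409-3p (0.030) and mmu-miR-31 (0.047). Its distance to mmu-miR-1, which was not picked in this way, was 0.11, where the median distance to microRNAs outside the set was 0.37. For mmu-miR-1 they were mmu-miR-340-5p (0.048), mmu-miR-142-3p (0.054) and mmu-miR-215 (0.084). For mmu-miR-133a they were mmu-miR-429 (0.10), mmu-miR-335-5p (0.12) and mmu-miR-503 (0.13), while mmu-miR-499 lay at 0.29, rno-miR-1 at 0.40, mmu-miR-1 at 0.48 and mmu-miR-133b at 0.48.

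For mmu-miR-133b the nearest profiles were those of mmu-miR-540-3p (0.098), mmu-miR-205 (0.16) and mmu-miR-32 (0.17), and mmu-miR-499 followed within the set at 0.19. For mmu-miR-499 they were mmu-miR-425 (0.073), mmu-miR-376a (0.14) and mmu-miR-24 (0.15). The median distance of a member to all microRNAs outside the set lay between 0.37 and 0.72. Within the set, mmu-miR-133b and the miR-1 assays were farther apart (0.79 and 0.83) than the median microRNA was from any member. Wild-type replicate 1 minus the mean of the other samples was 1.28 log2 units for mmu-miR-133b, -0.54 for rno-miR-1 and -0.59 for mmu-miR-1. The gap from mmu-miR-133b to mmu-miR-1 was 4.01 cycles in wild-type replicate 1 and 1.93 to 2.37 in the others. All these distances include that sample, and none was computed without it.

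MicroRNAs that act in muscle development but are expressed in many tissues were taken as a list of 19 names, of which 17 had an assay and 16 were detected in all samples. With limma 0 of the 16 passed the adjusted threshold, as did 0% of the 229, and 0 had an unadjusted p under 0.05, against 4.37% of the 229. Their median log2 fold change was 0.30, and -0.05 without wild-type replicate 1, where the medians of all microRNAs were 0.26 and -0.03. A fold change above 0 was held by 13 of the 16, against 68.1% of the 229. Both knockout samples lay above both wild-type samples for 3 of the 16, against 33.2% of the 229, and below for 2, against 6.11%. The highest values were 0.77 for mmu-miR-222, which restrains myoblast differentiation, 0.67 for mmu-miR-486, which is abundant in muscle and in red blood cells, and 0.51 for mmu-miR-29c, a regulator of matrix genes. Without wild-type replicate 1 these were -0.0043, -0.43 and -0.05. The lowest were -1.16 for mmu-miR-181a, -0.38 for mmu-miR-221 and -0.34 for mmu-miR-125b-5p, and they were -0.79, -0.60 and -0.67 without that sample.

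Markers of other tissues were detected beside those of muscle. All 4 samples held mmu-miR-143 and mmu-miR-145 of smooth muscle, mmu-miR-126-3p and mmu-miR-126-5p of endothelium, mmu-miR-122 of liver, mmu-miR-124 and mmu-miR-9 of brain, mmu-miR-451 of red blood cells and the 6 epithelial markers. The smooth-muscle pair had levels of 2.60 ± 0.56 and 3.13 ± 0.21 in wild-type and of 2.76 ± 0.75 and 3.16 ± 0.04 in knockout samples (SD, n = 2 each). Their log2 fold changes were 0.16 and 0.03, with a limma adjusted p of 0.962 and 0.986. Leaving out wild-type replicate 1 gave 0.22 and -0.45, and the median of the pair turned from 0.09 to -0.12. Among the other lists, endothelium and brain had 2 tested assays each and epithelium had 6. Liver and red blood cells had only 1 each, so their medians are values of a single assay. For red blood cells, miR-144 was also listed but had no assay. Medians of the other lists were 0.43 for endothelium, 0.78 for liver, -0.57 for brain, 0.42 for red blood cells and 0.32 for epithelium. Without wild-type replicate 1 they were 0.21, 0.28, -0.30, -0.41 and -0.08, so those of red blood cells and epithelium turned. Their part in the values of the striated-muscle members was not tested.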

How the data were processed

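Per the labels' protocols, TaqMan real-time PCR was run for 40 cycles on an Applied Biosystems 7900HT. The authors deposited 1 Ct per well, per the file headers. The threshold, baseline and any normalization by the authors are not given in the sources used here. Wells at 40.3 in wild-type replicate 1 (39 assays) were treated as undetermined, and the constant of 0.273 in its wells was kept. Lines without an assay (1141, in ER-alpha KO replicate 2) were not used.

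Levels were centred per sample on the median of the 229 microRNAs at a Ct of 35 or lower in all samples. Genotypes were compared by a two-sided limma test (version 3.58.1, under R 4.3.3; lmFit, then eBayes, with group alone in the model and Benjamini-Hochberg adjustment over 229). Its prior degrees of freedom came out infinite, which gives every assay the same variance. The 5 controls were MammU6 (mean of 4 wells), U87, Y1, snoRNA135 and snoRNA202. Gaps between assays are Ct differences, tested by exact permutation with scipy 1.17.1. The limma test, but not the permutation test, was tried on simulated data with independent normal noise and an SD set per sample. That noise held neither the whole-cycle readings of wild-type replicate 1 nor any link between samples with the same replicate number. Only 2 samples per group limit the precision. Members, lists and alternatives were chosen with earlier results of these data known. Named microRNAs were all members, the 3 nearest profiles of each, and the 3 highest and 3 lowest of the muscle-development list, where miR-128 is mmu-miR-128a.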

Additional observations from a re-analysis of the deposited data

How the results depend on the processing

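Under all 14 alternatives 0 striated-muscle members passed the adjusted threshold of limma, the smallest adjusted p being 0.166, for mmu-miR-133b without wild-type replicate 2. With the replicate number as a replicate block, 1 of all 229 microRNAs passed (mmu-miR-324-3p, limma adjusted p = 0.0058; named after its value was seen) and 0 members did. Deviations from the group mean of samples with the same number correlated over assays (r = 0.369). There are only 2 such pairs. With 2 samples per group both pairs give this same value, and the opposite pairing gives its negative by construction. The labels do not say what the numbers mark, so no pairing was assumed. Under every other alternative 0 of all microRNAs passed. Over all alternatives the log2 fold change ranged from 0.13 to 0.78 for mmu-miR-133a and from 0.028 to 0.86 for rno-miR-1, and kept its direction. That of mmu-miR-499 turned to 0.26 when scaled to the small-RNA controls, 0.27 with no normalization and 0.038 with quantile normalization, and at a Ct of 32 it was not detected in wild-type replicate 1. Leaving out 1 sample gave -0.15 to 0.77 for mmu-miR-1, -1.001 to 0.17 for mmu-miR-133b and -0.54 to 0.29 for mmu-miR-499. A fit that leaves 1 sample in a group takes its spread from the other group. The median of the members was 0.70 with control scaling, 0.71 with no normalization, 0.038 with quantile normalization and 0.11 with average-profile centring, where the medians of all microRNAs were 0.54, 0.55, 0.045 and -0.048. Detection was met in 19 of the 28 member wells at a Ct of 32 and in 24 at a Ct of 38. With the constant removed from wild-type replicate 1, an alternative added after seeing the data, it was met in 23, since both miR-208 assays of that sample came to 34.98. Leaving out 1 sample, also added after seeing the data, the knockout minus wild-type difference in Ct gap ranged from -0.63 to 0.48 for mmu-miR-133a to rno-miR-1, -0.60 to 0.74 for mmu-miR-133a to mmu-miR-1, -1.81 to 0.055 for mmu-miR-133b to rno-miR-1, and -1.77 to 0.31 for mmu-miR-133b to mmu-miR-1. It ranged from -0.18 to 1.35 for rno-miR-1 to mmu-miR-499 and from -0.44 to 1.32 for mmu-miR-1 to mmu-miR-499. The cause of these turns was not tested. The gap between the miR-133 assays kept its direction, at 0.43 to 1.17. Signals close to a Ct of 35 limit what can be said of both miR-208 assays.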
